A study of Mus musculus with 7 samples.

Results

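The respiratory chain of the mouse eye was described through 43 genes in libraries with and without Agbl5. Agbl5 encodes CCP5, a carboxypeptidase that trims glutamate side chains off tubulin, and the series asked what it does in photoreceptors. The members were chosen by name from the 54532 genes of the deposited expression table. They were the 13 protein genes of the mitochondrial genome, written mt-, and 30 genes of the nuclear genome. By complex, there were 7 mitochondrial and 14 nuclear genes of complex I, 4 nuclear genes of complex II, 1 mitochondrial and 6 nuclear genes of complex III, and 3 mitochondrial and 5 nuclear genes of complex IV. The others were cytochrome c and 2 mitochondrial genes of the ATP synthase. There were 3 Agbl5 knockout, 2 Agbl5 heterozygous and 2 wildtype libraries of polyadenylated RNA, all labelled as eyeball, with an extraction protocol that named retina. The strain, the age, the kind of deletion and whether replicates of a genotype came from separate mice were not given in the labels, so p-values measured the spread between libraries, which may be technical.

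The chain passes electrons from NADH through complex I, and from succinate through complex II, to complex III, cytochrome c and complex IV, while complexes I, III and IV pump the protons that drive the ATP synthase. Its proteins come from both genomes: the mitochondrial genes encode core subunits embedded in the inner membrane, and nuclear genes encode the rest. In the retina, photoreceptor inner segments are packed with mitochondria, which meet the high energy demand of the dark current.

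The values were FPKM, fragments scaled by gene length and library size, as the authors deposited them. In the FPKM, 1 read on 1 kilobase was worth 0.0663 to 0.0766 FPKM. From 12238268 to 14327633 reads per library were recovered, over the 53487 genes whose values were whole reads in every library. Agbl5 itself stood at 1.53, 1.73 and 1.26 FPKM in knockout, 4.21 and 5.34 in heterozygous and 9.89 and 8.56 in wildtype libraries, and fell in knockout against wildtype libraries by 2.03 ± 0.13 on the log2 scale (SE; limma, adjusted p = 0.00406). Rod markers were high in every library, with sums over 10 genes of 9881 to 10272 FPKM in knockout, 10878 to 11906 in heterozygous and 10823 to 11131 in wildtype libraries. Lens transcripts were high in knockout 1 and heterozygous 1: Cryaa, a lens crystallin, had 2541 and 1733 FPKM there, against 1.11 to 12.3 FPKM in the other 5. By their Xist level, knockout 3 and wildtype 2 came from female mice and the other 5 libraries from males. Summed microglial markers were 31.6 to 36.3 FPKM in knockout, 15.9 to 17.5 in heterozygous and 16.5 to 17.1 in wildtype libraries. The summed skeletal and extraocular muscle markers were 12.4 to 15.96 FPKM in knockout, 12.95 to 13.4 in heterozygous and 10.1 to 10.9 in wildtype libraries, with 2 of 14 genes listed at 0 throughout. In bulk tissue, fewer cells of a type and less RNA per cell cannot be told apart.

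Part of the mitochondrial genome is also present in the nuclear genome, and this bore on how the members could be read. On chromosome 1, on the minus strand of GRCm38, the GENCODE M21 annotation holds 7 unprocessed pseudogenes in a row over 4663 bases, chr1:24611535-24616197. They copy, in the mitochondrial order, the end of mt-Co1, then mt-Co2, mt-Atp6, mt-Co3, mt-Nd3, mt-Nd4l and the beginning of mt-Nd4. The copies of mt-Co2 (Gm28661, 681 bases), mt-Atp6 (Gm10925, 678 bases), mt-Co3 (Gm28437, 783 bases) and mt-Nd4l (Gm10222, 294 bases) matched the mitochondrial gene at every base. The copy of mt-Nd3 (Gm28438) differed at 1 of 345 bases, T3C, counted from the first base of the gene, with the mitochondrial base first. The copy of mt-Nd4 (Gm28439) matched the first 876 of its 1378 bases exactly. The copy of mt-Co1 in this row (Gm29216) covered 492 of its 1545 bases with 98.78% identity. The short gene mt-Atp8 lies between mt-Co2 and mt-Atp6 and has no annotated copy of its own. The gap between the copies of its neighbours was 233 bases, against 230 bases between the mitochondrial genes. A further pseudogene on chromosome 2, Gm13340, copies mt-Co1 over its whole length with 97.61% identity.

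The sequences here show a copy that is the same, letter for letter, and one that differs at scattered bases. They are the first 90 bases of each gene, from GENCODE M21 transcripts, 5′ to 3′, with capitals at the bases that differ within a pair. For mt-Co2 (chrM:7013-7102, plus strand) and Gm28661 (chr1:24615476-24615565, minus strand) there is no difference. For mt-Co1 (chrM:5328-5417, plus strand) and Gm13340 (chr2:22589558-22589647, minus strand) there are 3, C54A, A60G and G87A, counted from the first base with the mitochondrial base first.
mt-Co2: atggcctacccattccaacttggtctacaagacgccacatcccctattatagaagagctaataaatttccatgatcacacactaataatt
Gm28661: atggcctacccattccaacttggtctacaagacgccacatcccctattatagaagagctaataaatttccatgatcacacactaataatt
mt-Co1: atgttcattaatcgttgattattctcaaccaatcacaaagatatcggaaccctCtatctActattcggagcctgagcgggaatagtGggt
Gm13340: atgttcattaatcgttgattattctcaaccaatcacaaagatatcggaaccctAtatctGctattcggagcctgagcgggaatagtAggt

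Measured in windows of 50 bases, 100% of mt-Co2, 99.9% of mt-Co3, 99.5% of mt-Atp6, 98.8% of mt-Nd4l and 98.0% of mt-Nd3 occurred exactly in a transcript of another gene. The share was 62.2% for mt-Nd4, 51.1% for mt-Co1, 8.19% for mt-Nd2 and 7.61% for mt-Nd5. For mt-Nd1, mt-Nd6, mt-Cytb and mt-Atp8 it was 0%. Among the 30 nuclear members the median share was 0.268% and the highest 26.2%, for Cycs, which shares most with Gm10053, annotated as protein coding. A read that lies in such a window fits more than 1 annotated gene. For some nuclear members the other gene overlaps at the same locus, as Mrpl47 does with Ndufb5 and Pdzd9 with Uqcrc2. There the share measures overlap of genes and not a second place in the genome. How the authors counted reads that fit several genes or places is not given in the sources used here. Values of these genes and of their copies are therefore uncertain.

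The 13 mitochondrial members fell into 2 ranges of level that lined up with the copied span, with mt-Atp8 below both. The 7 members not wholly inside the copied span stood between 692 and 4751 FPKM in every library. They are called outside the span below, although the end of mt-Co1 and the beginning of mt-Nd4 are copied in it. The 5 members inside it that have a copy stood between 12.9 and 60.02 FPKM, within the range of the nuclear members, whose means over the 7 libraries ran from 8.51 to 109.9 FPKM. At 51.1% and 62.2% of windows, mt-Co1 and mt-Nd4 still stood in the high range. mt-Atp8 was lowest of the 13, and it was inside the span but had no window in another annotated transcript. Only transcripts were searched, so whether the gap between the copies of its neighbours holds a copy of mt-Atp8 was not read. Whether the copies set these levels was not tested.

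**Figure D1:**
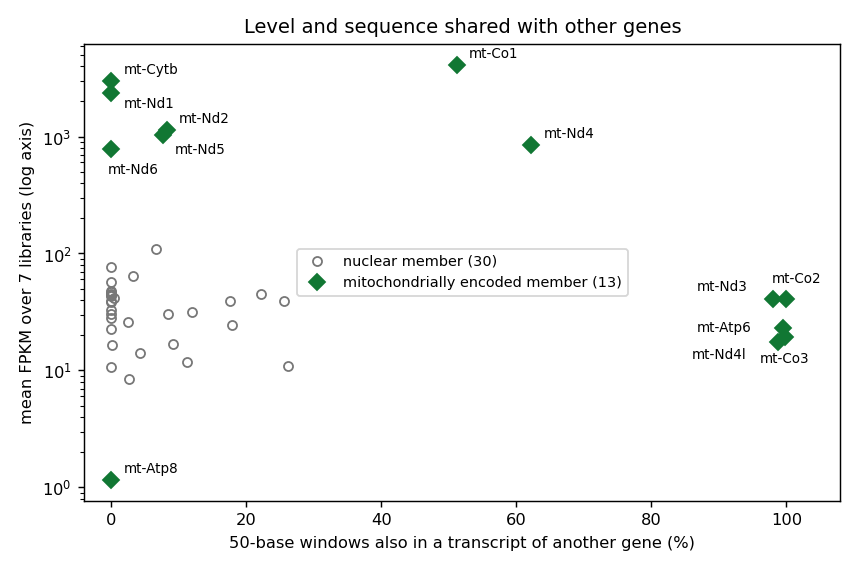
Mean FPKM over the 7 libraries (log axis) against the percent of 50-base windows of a gene that occur in a transcript of another gene, for 13 mitochondrially encoded members (filled diamonds) and 30 nuclear members (open circles). The 5 mitochondrial members at 98.0% or more lie with the nuclear members, while the 7 between 0% and 62.2% lie higher and mt-Atp8 lies lowest. Only annotated transcripts were searched, so the 0% of mt-Atp8, which lies inside the copied span, does not exclude a copy.

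Complex I has 7 mitochondrial subunits, and those outside the copied span were lower in knockout than in control libraries without any passing the test across genes. mt-Nd1 (chrM:2751-3707, plus strand of GRCm38), which sits where ubiquinone enters the complex, had 2139, 2259.9 and 2041 FPKM in knockout, 2713 and 2451 in heterozygous and 2259.6 and 2598 in wildtype libraries. It was the only one of the 7 genes outside the span in which knockout and control libraries overlapped, through knockout 2 and wildtype 1. mt-Nd2 (chrM:3914-4951), one of 3 antiporter-like subunits that move protons, had 1013, 1072 and 1017 FPKM in knockout, 1346 and 1166 in heterozygous and 1101 and 1250.3 in wildtype libraries. Each knockout library lay below each control library. mt-Nd4 (chrM:10167-11544), the second of these subunits, had 773, 745 and 777 FPKM in knockout, 967 and 878 in heterozygous and 837 and 932 in wildtype libraries. mt-Nd5 (chrM:11742-13565), the last of them, had 919.9, 940.0 and 921 FPKM in knockout, 1213 and 1056 in heterozygous and 983 and 1117 in wildtype libraries. In both genes the 3 knockout libraries were lowest and heterozygous 1 was highest. mt-Nd6 (chrM:13552-14070), a membrane subunit and the only one of the 13 on the minus strand, had 692, 702 and 698 FPKM in knockout, 964 and 787 in heterozygous and 742 and 889.6 in wildtype libraries. Here too the knockout libraries lay below the controls and close to each other. The last 14 bases of mt-Nd5 overlap mt-Nd6 on the opposite strand, and the kit does not mark strand, so reads of mt-Nd6 and of transcripts opposite to it could not be separated.

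The complex I subunits inside the copied span had other orders of genotypes. mt-Nd3 (chrM:9459-9806), a core membrane subunit, had 29.3, 41.96 and 36.4 FPKM in knockout, 39.3 and 36.5 in heterozygous and 44.4 and 60.02 in wildtype libraries. Wildtype libraries were highest and the knockout and heterozygous libraries overlapped. mt-Nd4l (chrM:9877-10173), another small membrane subunit that shares 7 bases with mt-Nd4, had 15.8, 12.9 and 24.1 FPKM in knockout, 15.3 and 17.03 in heterozygous and 16.6 and 19.6 in wildtype libraries. Its 3 genotypes overlapped, with knockout 2 lowest and knockout 3 highest.

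In complex III, mt-Cytb (chrM:14145-15288), the cytochrome b that carries electrons between both faces of the membrane, had 2747, 2807 and 2704 FPKM in knockout, 3418 and 3077 in heterozygous and 2943 and 3242 in wildtype libraries. Each knockout library lay below each control. In complex IV, mt-Co1 (chrM:5328-6872), which holds the site where oxygen is reduced, was the highest of the 43 members, with 3611, 3848 and 3767 FPKM in knockout, 4751 and 4394 in heterozygous and 4024 and 4378 in wildtype libraries. Knockout libraries were again lowest and did not overlap with the controls. mt-Co2 (chrM:7013-7696), which takes electrons from cytochrome c, had 39.3, 29.8 and 40.6 FPKM in knockout, 29.2 and 38.8 in heterozygous and 46.7 and 59.1 in wildtype libraries. Wildtype libraries were highest, and heterozygous libraries lay at the knockout level. mt-Co3 (chrM:8607-9390), the remaining mitochondrial core subunit, had 19.3, 13.6 and 16.8 FPKM in knockout, 18.7 and 21.2 in heterozygous and 18.9 and 25.9 in wildtype libraries. Knockout and control libraries overlapped, since knockout 1 stood above heterozygous 1 and wildtype 1.

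Of the ATP synthase members, mt-Atp6 forms part of its proton channel. mt-Atp6 (chrM:7927-8607) had 25.1, 15.3 and 22.01 FPKM in knockout, 14.6 and 32.7 in heterozygous and 25.8 and 24.6 in wildtype libraries, with the lowest and the highest value both in heterozygous libraries and no separation of genotypes. mt-Atp8 (chrM:7766-7969) rested on 3, 5 and 7 reads in knockout, 1 and 1 in heterozygous and 5 and 1 in wildtype libraries. With so few reads no fold is given, although this gene entered the medians of the 13. It shares 43 bases with mt-Atp6, in capitals here, and these are shown because a read inside them belongs to both genes: bases 153 to 204 of mt-Atp8 (chrM:7918-7969) and 1 to 52 of mt-Atp6 (chrM:7927-7978), both on the plus strand of GRCm38.
mt-Atp8: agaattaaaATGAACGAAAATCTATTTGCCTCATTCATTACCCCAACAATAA
mt-Atp6: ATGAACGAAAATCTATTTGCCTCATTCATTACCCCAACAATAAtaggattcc

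The 7 high members had the same order of level, per length, in all 7 libraries: mt-Co1, mt-Cytb, mt-Nd1, mt-Nd2, mt-Nd5, mt-Nd4, mt-Nd6. mt-Nd1 was 2.01 to 2.11 times mt-Nd2, the widest step. mt-Nd4 was 1.00 to 1.13 times mt-Nd6, so those neighbours differed little. mt-Nd2 was 1.10 to 1.14 times mt-Nd5.

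**Figure D2:**
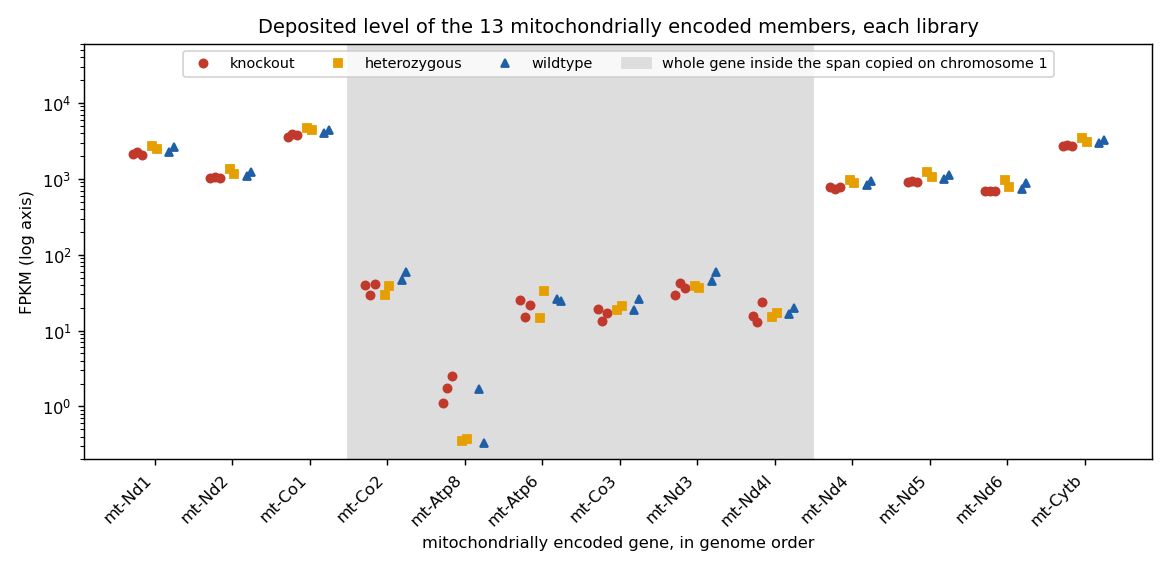
FPKM (log axis) of the 13 mitochondrially encoded members in genome order, 1 point per library, for 3 knockout, 2 heterozygous and 2 wildtype libraries; shading marks genes that lie wholly inside the span copied on chromosome 1. Outside the shading the levels are 692 to 4751 FPKM with knockout points lowest, apart from mt-Nd1, where knockout 2 and wildtype 1 meet; inside it they are at most 60.02 FPKM, with wildtype points highest in mt-Co2 and mt-Nd3 and the genotypes mixed in the other 4.

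Against wildtype, no mitochondrial or nuclear member passed an adjusted p of 0.05 in knockout libraries (limma on log2(FPKM + 1), Benjamini-Hochberg over 15472 genes). Over all tested genes 0.323% passed. Unadjusted, 2 of the 43 members had p under 0.05, against 7.5% of tested genes, and voom on recovered reads, which could use 41 of the 43, called none. The 7 members outside the span had log2 changes of -0.22 to -0.17, with a median of -0.18, and the median over all tested genes was -0.00. The one farthest from 0 was -0.22 ± 0.12 for mt-Nd6 (SE; limma, adjusted p = 0.763). mt-Nd4 was at -0.21 ± 0.09 (limma, adjusted p = 0.672), with group means of 765 ± 17.2 FPKM in knockout (SD, n = 3) and 884 ± 67.02 FPKM in wildtype libraries (SD, n = 2). Knockout and wildtype libraries did not overlap in 6 of the 7, lower in knockout, against 14.7% of tested genes. The 2 members with an unadjusted p under 0.05 were inside the span: mt-Nd3 at -0.53 ± 0.18 (limma, adjusted p = 0.548) and mt-Co2 at -0.52 ± 0.18 (limma, adjusted p = 0.585). The median of the 13 was -0.18, but it was -0.10 without wildtype 2 and -0.27 without wildtype 1.

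Against heterozygous libraries the 7 members outside the span were again lower in knockout, and no member passed. Of all tested genes 0.317% were called, and of the 43 members 0. Unadjusted, 8 of the 43 had p under 0.05, against 1859 of 15472 tested genes. Of the 8, 5 were lower, against 4.91% of tested genes lower. The 3 higher ones include mt-Atp8, which rests on 1 to 7 reads and reached a mean of 1 FPKM over the 7 libraries through the knockout ones (1.79 FPKM there, against 0.681 FPKM in the 4 controls), so its p carries no weight. The log2 changes of the 7 outside the span were -0.32 to -0.24 with a median of -0.28, and in each of the 7 the knockout libraries lay below both heterozygous ones. For all tested genes that share was 14.5%. mt-Nd6 was farthest from 0, at -0.32 ± 0.12 (SE; limma, adjusted p = 0.379). The median of the 13 was -0.27, and -0.17 without knockout 1 and heterozygous 1, the lens-rich libraries, or without heterozygous 1 alone. Inside the span the median was -0.01.

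Heterozygous libraries were not shown to differ from wildtype. In this comparison 0.0% of all tested genes and 0 of the 43 members were called by limma, and 1 member, mt-Co2, had an unadjusted p under 0.05, against 4.0% of tested genes. The log2 change of mt-Co2 was -0.63 ± 0.20 (limma, adjusted p = 0.974). The 7 members outside the span ran from 0.06 to 0.12 with a median of 0.09, and wildtype 2 lay between both heterozygous libraries in 6 of them, mt-Co1 being the exception. The median of the 13 was 0.06 and turned to -0.01 without heterozygous 1 and to -0.02 without wildtype 1.

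Set against both control genotypes together, which reuses the same libraries, the 7 members outside the span ran from -0.27 to -0.20 with a median of -0.23. Each of the 7 had an unadjusted p under 0.05, and none passed the adjustment, whereas 0.614% of all tested genes did. In total, 10 of the 43 members had an unadjusted p under 0.05, against 1891 of 15472 tested genes. Of the 10, 8 mitochondrial ones were lower, against 5.46% of tested genes lower. Among the 10 is again mt-Atp8, higher, with the same limit. mt-Nd4 had the smallest p, at -0.24 ± 0.07 on the log2 scale (limma with its SE, adjusted p = 0.258), and stood at 765 ± 17.2 FPKM in knockout (SD, n = 3) and 903 ± 57.4 FPKM in control libraries (SD, n = 4). Knockout libraries lay below all 4 controls in 6 of the 7, against 6.26% of tested genes. The 13 genes are read from 1 genome in long shared transcripts, so they are not independent of each other. Rod marker sums were also lowest in the knockout libraries, although the mean log2(FPKM + 1) of the same 10 genes overlapped, at 9.21, 9.19 and 9.15 in knockout, 9.22 and 9.24 in heterozygous and 9.27 and 9.20 in wildtype libraries. Microglial sums were highest in the knockout libraries; the part of either in these values was not tested.

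The nuclear members lay on both sides of 0. Their median log2 change was 0.05 against wildtype, 0.06 against heterozygous and 0.03 against all controls, and 0 of 30 were called in each. Of the 30, 18 were positive and 12 negative against wildtype; 4 were higher in knockout without overlap, against 13.5% of tested genes, and 1 was lower, against 14.7%. When each library was instead rescaled to the same FPKM sum, the median of the nuclear members against wildtype turned to -0.11 while that of the 13 went to -0.35 and that of all tested genes to -0.16, so the mitochondrial members stayed lower and the nuclear ones higher than the median gene. That sum is taken up in part by 1 short RNA gene model, Gm23935, which held 17.2, 7.04 and 14.7 in knockout, 5.95 and 11.3 in heterozygous and 5.45 and 2.16 in wildtype libraries, in percent.

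Summed over the 13, the mitochondrial members held 12025, 12490.0 and 12066 FPKM in knockout, 15489 and 13956 in heterozygous and 13043 and 14596 in wildtype libraries. Each knockout sum was below each control sum. As a share of the library's FPKM this was 4.45 ± 0.414% in knockout (SD, n = 3), 5.69 ± 0.555% in heterozygous (SD, n = 2) and 5.64 ± 0.641% in wildtype libraries (SD, n = 2). Without Gm23935 in the sum the shares were 4.87, 5.23 and 5.204 in knockout, 6.46 and 5.97 in heterozygous and 5.48 and 6.23 in wildtype libraries, in percent, again lowest in the 3 knockout libraries. The 6 members inside the span contributed 129.9, 115 and 142 FPKM in knockout, 117 and 147 in heterozygous and 154 and 189.7 in wildtype libraries of these sums.

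As a mean of log2(FPKM + 1), the 7 members outside the span stood at 10.45, 10.49 and 10.45 in knockout, 10.83 and 10.65 in heterozygous and 10.56 and 10.74 in wildtype libraries. The 3 knockout libraries lay close together and below all 4 controls. The 30 nuclear members stood at 5.09, 5.04 and 4.94 in knockout, 4.89 and 5.01 in heterozygous and 5.02 and 4.97 in wildtype libraries, with the genotypes mixed and heterozygous 1 lowest. Heterozygous 1 had the highest mean of these 7 members and the lowest nuclear one. Over all 13 members its mean of 7.60 was not the highest, since heterozygous 2 stood at 7.64, both wildtype libraries at 7.66 and 7.79, and knockout 3 at 7.61. The difference between the mean of the 13 and that of the 30 was 2.50 ± 0.15 in knockout (SD, n = 3), 2.67 ± 0.06 in heterozygous (SD, n = 2) and 2.73 ± 0.12 in wildtype libraries (SD, n = 2), and knockout 3 lay above heterozygous 2 and wildtype 1.

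**Figure D3:**
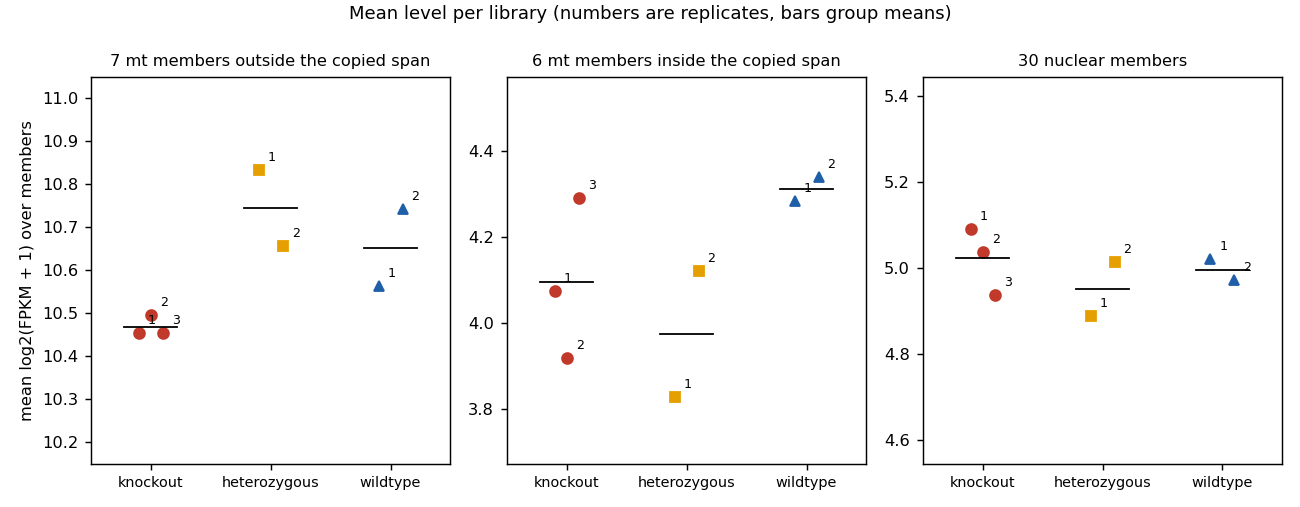
Mean log2(FPKM + 1) over the 7 mitochondrial members not wholly inside the copied span, the 6 inside it and the 30 nuclear members. Each library is 1 numbered point, with a bar at each genotype's mean. The 3 vertical axes have the same length but not the same origin. On the left the knockout libraries (10.45 to 10.49) lie below the 4 controls (10.56 to 10.83); in the other panels knockout and control libraries overlap.

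Nuclear complex I members ran from Ndufb8 at a mean of 8.51 FPKM to Ndufa2 at 63.5 FPKM, both accessory subunits, and their median change in knockout against wildtype libraries was 0.00. Ndufs7 (chr10:80249121-80256794), the iron-sulfur subunit next to the ubiquinone site, had 45.7, 40.8 and 42.9 FPKM in knockout, 38.7 and 45.3 in heterozygous and 39.6 and 39.1 in wildtype libraries. Knockout libraries lay above wildtype and heterozygous 2 lay among them, so that the log2 change was 0.13 ± 0.08 against wildtype (SE; limma, adjusted p = 0.794). Ndufa1 (chrX:37187588-37191163), a small accessory subunit at the membrane, had 62.96, 49.2 and 43.8 FPKM in knockout, 38.4 and 46.1 in heterozygous and 42.1 and 44.2 in wildtype libraries. Knockout 1, a lens-rich library, was highest, and knockout 3 lay among the controls. Ndufa10 (chr1:92439010-92473860), also accessory, had 30.1, 30.2 and 27.1 FPKM in knockout, 31.1 and 30.4 in heterozygous and 32.3 and 30.04 in wildtype libraries and overlapped between genotypes, with a change of -0.09 ± 0.07 (limma, adjusted p = 0.827). The log2 values of the remaining complex I members against wildtype were -0.10 to 0.20: the core subunits Ndufs1 (-0.10), Ndufs3 (-0.09), Ndufs8 (0.02), Ndufv1 (-0.02) and Ndufv2 (0.05), and the accessory subunits Ndufs4 (-0.02), Ndufa2 (0.20), Ndufa9 (0.02), Ndufb5 (0.05), Ndufb8 (-0.01) and Ndufb10 (-0.06). Ndufa2 had an unadjusted p under 0.05 against heterozygous libraries, at 0.43 ± 0.17 (limma, adjusted p = 0.407).

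Complex II, the only complex with no mitochondrial gene, had a median change of 0.02. Sdha, the flavoprotein that oxidises succinate, was its highest member at a mean of 76.6 FPKM and had 78.5, 75.1 and 75.3 FPKM in knockout, 69.9 and 77.8 in heterozygous and 78.1 and 81.5 in wildtype libraries. Heterozygous 1 was lowest and wildtype 2 highest, with the knockout libraries between them. Sdhb (chr4:140961203-140979193), its iron-sulfur subunit, had 24.4, 22.3 and 24.4 FPKM in knockout, 21.2 and 22.6 in heterozygous and 22.02 and 22.03 in wildtype libraries. Knockout lay above wildtype without overlap, by 0.10 ± 0.07 (SE; limma, adjusted p = 0.793), whereas heterozygous 2 exceeded knockout 2. Sdhd, a membrane anchor, had 45.7, 39.8 and 36.8 FPKM in knockout, 31.3 and 41.1 in heterozygous and 39.4 and 36.6 in wildtype libraries, and its genotypes overlapped. Sdhc, the other anchor, was lowest at a mean of 16.6 FPKM and was at -0.06 against wildtype.

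Nuclear complex III members had a median change of 0.08, the highest of the nuclear groups. Uqcrc1 (chr9:108936633-108949623), a core protein of the complex, had 39.8, 42.4 and 39.2 FPKM in knockout, 38.5 and 37.3 in heterozygous and 38.2 and 36.8 in wildtype libraries. Every knockout library lay above every control, by 0.10 ± 0.05 against all controls (SE; limma, adjusted p = 0.442). Cyc1 (chr15:76343523-76346260), the cytochrome c1 that hands electrons to cytochrome c, had 46.3, 50.02 and 44.9 FPKM in knockout, 39.6 and 40.98 in heterozygous and 44.2 and 43.9 in wildtype libraries. It too did not overlap, with 0.22 ± 0.06 against heterozygous (limma, adjusted p = 0.312) and 0.16 ± 0.06 against all controls (limma, adjusted p = 0.377), and no other nuclear member separated knockout from all 4 controls. Over all tested genes 6.75% were higher without overlap in that comparison. Uqcrc2, the other core protein, had 40.2, 40.97 and 38.8 FPKM in knockout, 40.8 and 39.7 in heterozygous and 37.3 and 38.9 in wildtype libraries, with the genotypes overlapping. The Rieske protein Uqcrfs1, the highest member at a mean of 47.4 FPKM, was at 0.09 against wildtype. Of the small subunits, Uqcrb, with 25.5% of windows in another transcript, was at -0.21, and Uqcrq was at 0.08, the lowest member at 32.6 FPKM.

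Nuclear complex IV members had a median change of 0.07. Cox4i1 (chr8:120668222-120674207), a regulatory subunit and the highest nuclear member at a mean of 109.9 FPKM, had 121, 119.5 and 104 FPKM in knockout, 104 and 110.4 in heterozygous and 107 and 104 in wildtype libraries. Knockout 1 and 2 were highest and knockout 3 lay among the controls. Cox5a, the lowest at 16.9 FPKM, had 16.98, 17.6 and 16.6 FPKM in knockout, 18.1 and 16.3 in heterozygous and 17.4 and 15.7 in wildtype libraries. Cox7c had 52.2, 47.4 and 40.3 FPKM in knockout, 43.1 and 45.5 in heterozygous and 48.00 and 40.7 in wildtype libraries. These structural subunits overlapped between genotypes. Cox5b was at 0.08 and Cox6c at -0.02 against wildtype. Cycs (chr6:50562563-50566538), the somatic cytochrome c that links complexes III and IV, had 10.7, 10.8 and 10.1 FPKM in knockout, 10.3 and 11.4 in heterozygous and 11.8 and 11.3 in wildtype libraries. It was the only nuclear member lower in knockout than in wildtype without overlap, at -0.13 ± 0.07 on the log2 scale (SE; limma, adjusted p = 0.770), and heterozygous 1 lay among the knockout libraries.

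**Figure D4:**
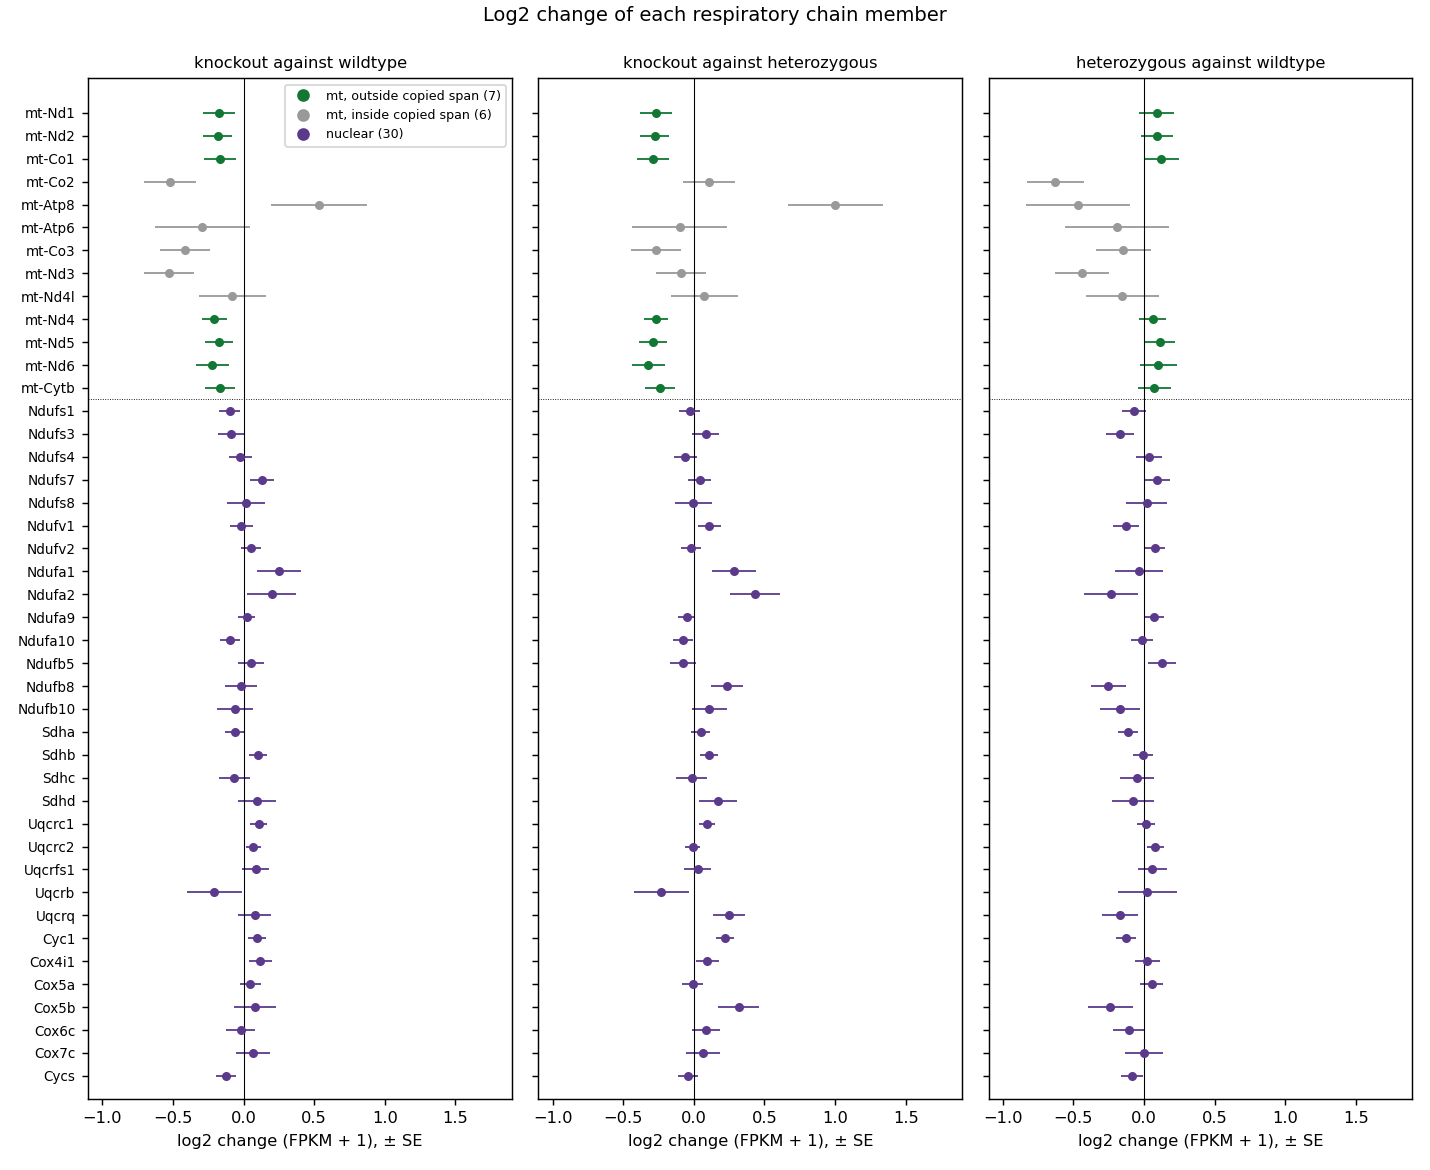
Log2 change of each of the 43 members with its SE from limma. The panels are for knockout against wildtype, for knockout against heterozygous and for heterozygous against wildtype. Green marks mitochondrial members not wholly inside the copied span, grey those inside it and purple the nuclear members. The 7 green points lie between -0.22 and -0.17 in the first panel and between -0.32 and -0.24 in the second, and nuclear points lie on both sides of 0; none passed the test, and mt-Atp8, the widest point, rests on 1 to 7 reads.

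Other genes of the pathway, from lists put together for this tissue, did not pass either: 0 were called in either direction in each list and comparison. Over all tested genes the share called was 0.323% in knockout against wildtype and 0.317% against heterozygous. It was 0.614% against all controls and 0.0% in heterozygous against wildtype. With shares this small, 0 calls in short lists says little about them. In knockout against wildtype libraries the median was -0.01 over 23 other complex I subunits, 0.12 over 3 of complex III, 0.00 over 7 of complex IV and 0.01 over 17 nuclear ATP synthase subunits. Ndufa7 (adjusted p = 0.622, limma) and Ndufv3 (adjusted p = 0.659), of complex I, were at 0.16 and 0.13, higher without overlap, against 13.5% of tested genes. Uqcr11 and Uqcr10 of complex III were at 0.20 and 0.12. Ndufa4 and Cox7a2l of complex IV were at -0.11 and -0.11. Atp5e and Atp5g2 of the ATP synthase were at 0.26 and 0.08.

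Among 38 assembly factors the median was -0.03. Tmem70, which helps assemble the ATP synthase, had 7.81, 7.94 and 8.197 FPKM in knockout, 9.41 and 9.05 in heterozygous and 10.6 and 9.69 in wildtype libraries. Knockout libraries were lowest, at -0.31 ± 0.07 against wildtype (SE; limma, adjusted p = 0.279). Cox20, a chaperone of the mt-Co2 protein, had 3.85, 4.01 and 3.64 FPKM in knockout, 2.73 and 2.26 in heterozygous and 2.94 and 2.33 in wildtype libraries. Knockout libraries were highest, at 0.42 ± 0.11 against wildtype (SE; limma, adjusted p = 0.431) and 0.44 ± 0.09 against all controls (limma, adjusted p = 0.114).

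Among 30 genes that maintain or express the mitochondrial genome the median was 0.03. Lrpprc, whose protein binds and stabilises mitochondrial messenger RNAs, had 12.6, 12.3 and 14.1 FPKM in knockout, 16.1 and 16.1 in heterozygous and 15.5 and 16.1 in wildtype libraries. The knockout libraries lay below all 4 controls, against 6.26% of tested genes. Its log2 change was -0.28 ± 0.06 against all controls (limma with its SE, adjusted p = 0.114) and -0.27 against wildtype (limma, adjusted p = 0.422). Tfam, which packages and helps transcribe the mitochondrial genome, had 4.38, 4.63 and 5.29 FPKM in knockout, 5.58 and 5.196 in heterozygous and 4.56 and 4.54 in wildtype libraries, and overlapped, with 0.05 ± 0.09 against wildtype (limma, adjusted p = 0.924). Hsd17b10, part of the enzyme that trims mitochondrial transfer RNAs, was at 0.40 ± 0.19 (limma, adjusted p = 0.736). Among 13 regulators of respiratory genes the median was -0.03. The coactivator Ppargc1a had 8.82, 9.09 and 9.51 FPKM in knockout, 9.96 and 9.19 in heterozygous and 8.67 and 9.66 in wildtype libraries, with a change of -0.00 ± 0.08 (limma, adjusted p = 0.996). Gabpb1, a subunit of the factor GABP, was at -0.18 and the factor Yy1 at 0.19.

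The RNAs of the mitochondrial genome that encode no protein are not the target of poly(A) selection, and 19 of 24 reached the level for testing. Their median was -0.32 against wildtype, with 0 called by limma, against 0.323% of tested genes, and 4 of the 19 at an unadjusted p under 0.05, against 7.5% of tested genes. The ribosomal RNA mt-Rnr1 had 175, 214 and 163 FPKM in knockout, 213 and 208 in heterozygous and 220.4 and 243 in wildtype libraries. Knockout lay below wildtype, at -0.34 ± 0.12 (SE; limma, adjusted p = 0.590), while knockout 2 overlapped the heterozygous libraries. The ribosomal RNA mt-Rnr2 had 347, 441 and 342 FPKM in knockout, 481 and 397 in heterozygous and 419 and 515 in wildtype libraries, with knockout 2 among the controls. The transfer RNAs rest on few reads: mt-Tw had 12, 7 and 7 reads in knockout, 18 and 14 in heterozygous and 16 and 24 in wildtype libraries. mt-Tw and mt-Ty were at -1.02 ± 0.27 (limma, adjusted p = 0.404) and -1.20 ± 0.33 (limma, adjusted p = 0.435).

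Promoter sequences from RefSeq (GRCm38.p6, the stretch around the start of the gene) were found for 21 of the 30 nuclear members. Words of factors known for respiratory genes were searched on both strands. The NRF1 core, GCGCATG followed directly by CGC, was found in 1 of the 21 (4.76%), that of Uqcrc1, against 0.971% of 32851 promoters. GCGCATG alone, which every such core also holds, was in 5 (23.8%), those of Cox5b, Cycs, Ndufb8, Sdhb and Uqcrc1, against 3.91%. The GABP core CCGGAAG was in 4 (19.0%) against 8.86%, the ERR core AAGGTCA in 1 (4.76%) against 4.72%, and the YY1 core AAGATGGC in 4 (19.0%), those of Ndufa9, Ndufb8, Ndufs4 and Ndufs7, against 2.75%. A match is a description of the letters and no evidence of binding. In knockout against wildtype libraries the 5 genes with GCGCATG ran from -0.13 for Cycs to 0.11 for Uqcrc1, and none was called. Whether such a word goes with a change was not tested. The promoter of Uqcrc1 (chr9:108936398-108936697, plus strand) is shown because that gene was among the 2 nuclear members higher in every knockout than in every control library. For Cyc1, the other of these 2, no promoter sequence was available. The capitals mark the NRF1 core.
Uqcrc1: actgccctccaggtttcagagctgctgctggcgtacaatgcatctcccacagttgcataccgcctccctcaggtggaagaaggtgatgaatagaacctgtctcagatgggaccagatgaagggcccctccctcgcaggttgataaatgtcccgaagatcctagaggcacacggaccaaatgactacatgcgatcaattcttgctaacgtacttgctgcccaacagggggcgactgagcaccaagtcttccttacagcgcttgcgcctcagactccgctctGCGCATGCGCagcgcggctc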

How the data were processed

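The members and gene lists were chosen with earlier results of these data known. The deposited table held FPKM for 54532 genes in 7 libraries, a scale on which the authors had already divided by gene length and library size. HTSeq, DESeq, Bowtie2 2.0.6 and TopHat2 2.0.9, and the builds mm10 and GRCm38, stand in the submitters' processing notes; settings and the handling of reads with several positions were not given in the sources used here. Per the labels' protocols, libraries were made from poly(A) RNA with a kit that does not mark strand.

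Exon lengths came from GENCODE M21, which held 54409 of the genes; with them 96.8% of values were whole reads within 0.01. The test was limma 3.58.1 (R 4.3.3, mean-variance trend) on log2(FPKM + 1), which understates changes of low genes, for the 15472 genes that averaged 1 FPKM or more, with Benjamini-Hochberg adjustment at 0.05. All 43 members passed that filter, mt-Atp8 near the minimum. A fit of 3 genotypes gave the pairwise comparisons, and a fit of 2 groups gave knockout against both controls; they share libraries. The test was checked on simulated data. Members' transcripts were searched for windows of 50 bases in transcripts of other genes. Values were given in every library for the 13 mitochondrial members and, per complex, for the 3 nuclear members with the smallest unadjusted p in knockout against wildtype; of each list, 2 members were named by the same order, and mt-Rnr1, mt-Rnr2, Ppargc1a, Tfam and Lrpprc in any case.

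Alternatives were pseudocounts of 0.1 and 0.01, no filter or a mean of 5 FPKM, 2 rescalings, voom on recovered reads, sex as a covariate, the replicate block and leaving out libraries. Python 3.11.15 and SciPy 1.17.1 were used. Recovered reads came to 12238268 to 14327633 per library, over the genes whose values were whole reads in every library.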

Additional observations from a re-analysis of the deposited data

Results flagged for a closer look

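The 4 control libraries were checked for 1 library far from the other 3, in 48 measures of the members, and chance marks about 1 in 20; 5 were marked. mt-Atp8 had 1.68 FPKM in wildtype 1, against 0.325 to 0.376 FPKM in the other 3, on 5 reads and 1 read each. Ndufs1, a core subunit of complex I, had 15.4 FPKM in wildtype 2, against 13.9 to 14.0 FPKM. Ndufs7, an iron-sulfur subunit, had 45.3 FPKM in heterozygous 2, against 38.7 to 39.6 FPKM. Ndufv1, which binds NADH, had 49.3 FPKM in heterozygous 1, against 58.2 to 58.6 FPKM. Ndufb5, an accessory subunit, had 13.6 FPKM in heterozygous 2, against 11.2 to 11.3 FPKM.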

How the results depend on the processing

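No member was called under any alternative. The smallest adjusted p over the alternatives was 0.338 for a mitochondrial member and 0.438 for a nuclear one in knockout against wildtype, 0.0984 and 0.155 against heterozygous, 0.0958 and 0.282 against all controls, and 0.359 and 0.371 in heterozygous against wildtype. The 7 members outside the copied span stayed negative in all 119 values of 17 alternatives in each knockout comparison (-0.38 to -0.08 against wildtype, -0.47 to -0.16 against heterozygous, -0.40 to -0.16 against all controls), and 13 of 119 changed sign in heterozygous against wildtype. These values are not separate checks. A change of filter leaves a log2 change as it was, and the replicate block repeats the knockout changes found without knockout 3. The 7 genes also share 1 genome and long transcripts. Over alternatives the mitochondrial members changed sign in 3, 11, 3 and 18 of 220 values, in knockout against wildtype, against heterozygous, against all controls and in heterozygous against wildtype, and the nuclear members in 40, 48, 54 and 53 of 508. With each library rescaled to the same FPKM sum the mitochondrial median was -0.35, -0.35, -0.35 and -0.017 and the nuclear one -0.11, -0.027, -0.092 and -0.10 in the same order, with all-gene medians of -0.16, -0.07, -0.12 and -0.08. Without both lens-rich libraries the mitochondrial median was -0.17 in knockout against heterozygous and -0.0094 in heterozygous against wildtype.

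Leaving out each library in turn, the mitochondrial median ran from -0.27 to -0.10 against wildtype, from -0.31 to -0.17 against heterozygous and from -0.017 to 0.14 in heterozygous against wildtype. Calls over all genes moved more. They were 50 in knockout against wildtype, 28 on the equal-sum scale, 77 by voom, 3 without the lens-rich libraries, 33 with sex as a covariate and 5 to 53 with 1 library left out. They were 49 against heterozygous, 83 by voom, 0 without the lens-rich libraries and 14 to 40 with 1 library left out. They were 95 against all controls, 63 on the equal-sum scale, 147 by voom, 48 without the lens-rich libraries and 45 to 90 with 1 library left out. In heterozygous against wildtype 0 genes were called, 19 with no filter and 0 to 3 with 1 library left out. Whether replicate numbers pair the libraries was not settled. Deviations of libraries with the same number correlated at -0.02 to 0.43, and libraries with different numbers were not compared. In a genotype of 2 libraries the deviations mirror each other, so this check cannot exclude pairing. With the replicate block, 3, 0 and 38 genes were called in knockout against wildtype, against heterozygous and against all controls. Only knockout has a replicate 3, so the block also takes knockout 3 out of the fit. Blocking and the loss of that library cannot be told apart in these counts. The mitochondrial minus nuclear mean in heterozygous libraries was 2.58 and 2.56 with pseudocounts of 0.1 and 0.01, and 2.60 on a scale without the mitochondrial genome and Gm23935, against 2.67. The mitochondrial share of the FPKM sum in knockout libraries was 5.10% without Gm23935, against 4.45%. The cause of these shifts was not tested. Windows of 100 bases gave shares of 97.6 to 99.9% for the 5 copied members and at most 60.8% for the other mitochondrial ones. Intervals for depth are not given: a read is worth 0.0663 to 0.0766 FPKM on 1 kilobase, which limits mt-Atp8 most.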

Other observations

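The pseudogenes copied from the mitochondrial genome had values of their own in the table. Gm28661, the copy of mt-Co2, stood at 49.6, 29.9 and 45.7 FPKM in knockout, 30.4 and 50.1 in heterozygous and 50.3 and 72.0 in wildtype libraries. That was the level of mt-Co2 itself, 29.2 to 59.1 FPKM. Across the 7 libraries mt-Co2 and Gm28661 correlated with Pearson's r of 0.965 (exact permutation p = 0.0111, adjusted over 7 pairs 0.0778) and Spearman's rho of 0.82 (exact permutation p = 0.0341, adjusted 0.112), and r was 0.858 without the 2 libraries farthest from the median. mt-Atp6 and Gm10925 had r of 0.712 (exact permutation p = 0.0571, adjusted 0.2) and rho of 0.89 (exact permutation p = 0.0123, adjusted 0.0861), and r was 0.409 without the 2 farthest libraries. mt-Co3 and Gm28437 had r of 0.579 (exact permutation p = 0.183, adjusted 0.427) and rho of 0.79 (exact permutation p = 0.0480, adjusted 0.112), and r was 0.473 without the 2 farthest. The other 4 pairs had r between -0.286 and 0.161 and rho between -0.286 and 0.429, with adjusted p of at least 0.619 by exact permutation. No pair passed after adjustment on either measure. The copies of mt-Co2, mt-Atp6 and mt-Co3 match at every base, so a read of either gene fits both. Their correlations therefore do not describe separately measured transcripts. The permutation also moved libraries across genotypes. Gm10925, the copy of mt-Atp6, stood at 19.8 to 35.5 FPKM, against 14.6 to 32.7 FPKM for mt-Atp6. Gm28439, which matches 876 bases of mt-Nd4 exactly, stood at 5.34 to 8.35 FPKM, against 745 to 967 FPKM for mt-Nd4.

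Isoforms of complex IV and cytochrome c known from muscle or testis were low, apart from Cox4i2, an isoform best known from lung, at 14.0 to 19.6 FPKM. Of 8 such genes 4 reached the level for testing, and Cox8c and Cyct were listed at 0 in all 7 libraries. Cox8b, the muscle isoform of subunit 8, is also among the muscle markers summed above. It had 7.77, 3.15 and 6.30 FPKM in knockout, 5.70 and 3.83 in heterozygous and 2.47 and 2.03 in wildtype libraries. Knockout lay above wildtype without overlap, by 0.99 ± 0.32 on the log2 scale (SE; limma, adjusted p = 0.543), and overlapped heterozygous.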
